A study of Mus musculus with 22 samples.

Results

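Pabpc4 encodes a cytoplasmic poly(A)-binding protein, one of the proteins that coat the poly(A) tail of mRNA and act in its stability and translation. The locus was taken here as all RNA polymerase II (PolII) peaks in a window of mouse chromosome 4 that starts 60154 bp before the TSS and ends 89846 bp after it (mm9). The window held 257 of the 1309572 peaks in 18 PolII lists. Of these, 217 had their summit in the Pabpc4 TSS zone, gene body or downstream zone, and 40 lay farther along towards and inside a neighbouring gene. The gene was selected on its auxin response: among 15784 regions with a peak in all 14 post-mitotic libraries, its TSS region had the largest fall in rank, −3.71 on the −log2 scale, ahead of −2.45 at the next region, over the Bola3 TSS. All post-mitotic auxin values of Pabpc4 are therefore given as a description, without a test. The −log2 scale counts a move near the top of a list for more than an equal number of places lower down. The order given is that of this scale, and Def8, described below, fell over more places.

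The libraries are PolII ChIP-seq, which maps the DNA bound by the polymerase, from G1E-ER4 cells, a mouse erythroblast line derived from GATA1-null G1E cells. Both Ctcf alleles carry an auxin-inducible degron with mCherry, and a TIR construct introduced by a retroviral vector lets auxin trigger degradation of CTCF. These modifications are shared by control and auxin-treated cells. Cells were arrested in prometaphase with nocodazole and sorted there or 60, 120 or 240 min after release, at early-G1, mid-G1 and late-G1, and auxin was present during the last 4 h of arrest and during release. Each group had 2 libraries, except at mid-G1, where control and auxin-treated cells had 3 each. The study describes them as biological replicates. The late-G1 control libraries are numbered 2 and 3 and the auxin-treated ones 1 and 2. All 8 erythroid or precursor marker genes looked for (Kit, Gata2, Tal1, Gfi1b, Lmo2, Epor, Tfrc and Lyl1) had a TSS peak in all 14 post-mitotic libraries, and all 6 genes of other cell types had one in none. A relative depth recovered from the lists was 4.54 to 13.3 reads per kb in the 7 post-mitotic control libraries, 7.53 to 9.27 in the 7 auxin-treated ones and 4.94 to 5.95 in the 4 prometaphase libraries. Mid-G1 control replicate 1 was the shallowest library, with 50594 peaks.

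PolII is loaded at the promoter, often pauses just past the TSS, moves through the gene body and continues beyond the poly(A) site before it is released. Peaks in these 3 places thus report different steps of the same transcription cycle. CTCF is a zinc-finger protein that binds DNA and takes part in folding chromosomes into loops and domains. Poly(A)-binding proteins are abundant in cells that make much protein, and PABPC4 is known to bind and stabilize mRNAs of the erythroid program.

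The TSS of Pabpc4 (ENSMUSG00000011257.10, + strand) was set at 122960154, where 3 of its 6 coding transcripts start, and the annotated end at 122976075. The gene model itself begins at 122939594, and no peak of any library lay between there and the promoter. The TSS zone ran 500 bp to either side (122959654 to 122960654), the gene body from there to the end (15421 bp), and the downstream zone over the 10 kb after the end. The promoter is shown because the strongest TSS peak was centred in it in all 16 libraries that had one. It is part of the RefSeq promoter (GRCm38.p6), whose 300 bases matched the + strand of mm9 chromosome 4 at 1 place. Other chromosomes and the − strand were not searched. The first coding transcript starts at 122960068, 86 bp before the TSS used here. Capitals mark the letters TATAAA.

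Pabpc4 promoter, chr4:122959904-122960097, + strand: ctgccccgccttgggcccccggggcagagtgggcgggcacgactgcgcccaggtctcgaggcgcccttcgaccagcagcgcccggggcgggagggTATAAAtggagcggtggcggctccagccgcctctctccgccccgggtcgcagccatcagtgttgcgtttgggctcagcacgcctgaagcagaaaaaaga

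The 194 bases shown are 70.1% G or C. TATAAA stands once, on the + strand, 69 bp before the first coding start, and occurs on either strand in 13.6% of 32851 RefSeq promoters of 300 bases. The summit of the strongest TSS peak lay 35 to 71 bp after the first letter of TATAAA in all 16 libraries. GGGCGG, the GC box, stands 2 times on the + and once on the − strand of the 300 bases, and 35.7% of promoters hold it on either strand. CCAAT occurs on neither strand there, and 37.4% of promoters hold it. The leader is rich in A, with 52 A in the 86 bases between the first coding start and the TSS used here, and the 106 bases of the RefSeq window past the sequence shown are 72.6% A. How uniquely short reads align there was not analysed here. A core motif of CTCF was searched in the same 300 bases. It stands on neither strand, and 2.43% of promoters hold it on either strand. Binding of CTCF at this promoter was not tested.

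**Figure D1:**
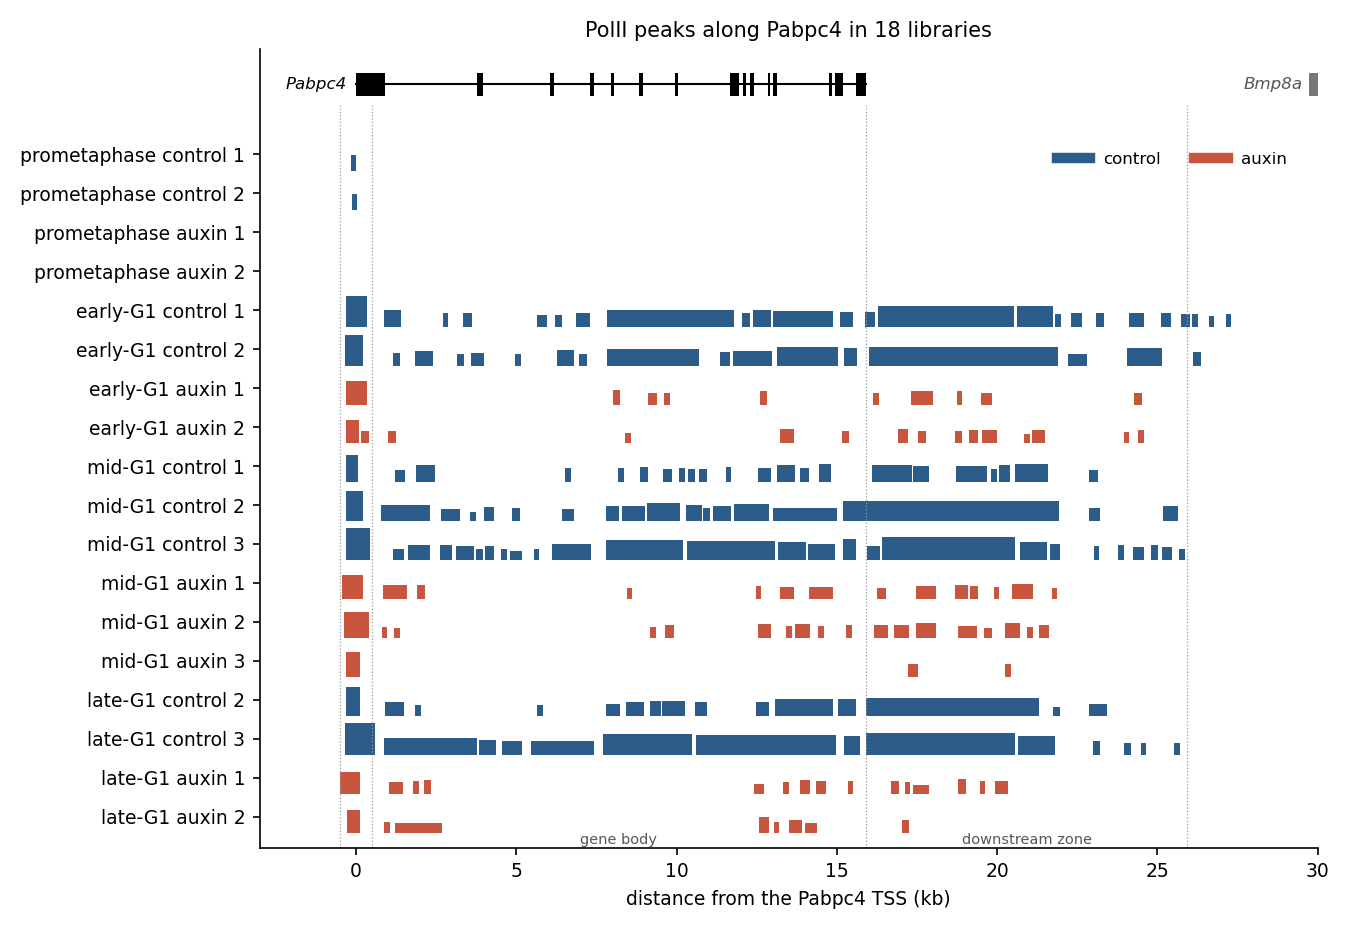
PolII peaks along Pabpc4 in each of the 18 libraries. The x axis gives the distance from the TSS in kb, each bar is a peak with its height on a log2 scale of fold enrichment, blue for control and red for auxin, and dotted lines bound the TSS zone, the gene body and the 10 kb downstream zone. Both prometaphase control libraries hold 1 peak at the TSS and the prometaphase auxin-treated libraries none, while the long peaks of the gene and its downstream zone lie in control libraries.

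In prometaphase the Pabpc4 promoter held a PolII peak in control cells and in no auxin-treated library. The peak was 168 bp wide in both control libraries, with a fold enrichment over local background of 7.65 and 7.66. A pileup of 13 and 14 fragments stood behind it, and it ranked 1430 of 3918 and 1356 of 3221 peaks. No other peak of these 4 libraries lay anywhere in the window.

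This difference was tested as covered bases. It was −168 bp (exact two-sided permutation p = 0.33, n = 2 and 2), and 2 against 2 libraries allow no smaller p. Among 7858 coding genes longer than 1 kb with a TSS zone peak in all 14 post-mitotic libraries, 1034 (13.2%) had one in both prometaphase control libraries. The pattern seen at Pabpc4 was shared by 157 (2%) of these genes, and the opposite one was found for 34 (0.433%). The lowest fold enrichment of any peak was 3.63 and 3.75 in the control and 3.77 and 3.84 in the auxin-treated prometaphase lists. The depth was 4.94 and 5.95 reads per kb in control and 5.21 and 5.75 in auxin-treated prometaphase libraries, and the part of depth and of the listing threshold in this difference was not tested.

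At 60 min after release peaks covered most of the locus in control cells. Summed over TSS zone, gene body and downstream zone, peaks covered 17249 and 17255 bp of the 26422 bp locus in early-G1 control libraries, against 168 bp in each prometaphase control library. In auxin-treated cells the early-G1 values were 3186 and 4196 bp, against 0 bp in prometaphase. Over both conditions, the 14 post-mitotic libraries covered 10152 bp more on average than the 4 prometaphase libraries, with a pooled SD of 3428 bp. The gene was chosen among regions with a peak in all 14 post-mitotic libraries, and no peak was required in prometaphase, so this difference is given as a description. The prometaphase lists are also much shorter than the G1 lists, at 2414 to 3918 peaks.

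No difference between the G1 stages was detectable after that. Covered bases of the locus were 17249 and 17255 in early-G1, 9063, 17867 and 19523 in mid-G1, and 12786 and 21215 in late-G1 control libraries. In auxin-treated libraries they were 3186 and 4196, then 5712, 6353 and 898, then 4499 and 3508. The early-G1 values lie inside the range of the later stages in both conditions. The late-G1 mean exceeded the early-G1 mean by 30.5 bp, averaged over the conditions, with a pooled SD between libraries of 3833 bp (exact permutation of stages within auxin condition, p = 0.967, n = 14). The lowest control value belongs to mid-G1 replicate 1, the shallowest library, and the lowest auxin-treated value to mid-G1 replicate 3, whose depth of 9.27 reads per kb is the highest of its condition.

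At the TSS itself no difference between the stages was called either. Rank was compared as −log2 of the place of a region when all merged regions of a library are ordered by their highest fold enrichment, so that a positive change is a move up the list. The Pabpc4 TSS region (122959665 to 122960758) moved by 0.23 ± 0.27 (SE) from early-G1 to late-G1, averaged over both conditions (limma adjusted p = 0.596). From early-G1 to mid-G1 it moved by 0.52 ± 0.25 (SE, limma adjusted p = 0.179) and from mid-G1 to late-G1 by −0.29 ± 0.25 (SE, limma adjusted p = 0.557). Of all 15784 regions, 2329 (14.8%) were called between late-G1 and early-G1, and Pabpc4 was not among them. That count was 69 with a normal score of the rank and 1348 to 1518 without 1 early-G1 library or 1 late-G1 auxin-treated library.

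The early-G1 to late-G1 course was also set against auxin. It was 0.17 ± 0.38 (SE) in control and 0.29 ± 0.38 (SE) in auxin-treated cells, a difference of 0.12 ± 0.54 (SE, limma adjusted p = 0.998). An F test for unequal auxin effects over the 3 stages gave a limma adjusted p of 0.999 for the Pabpc4 TSS region. With limma it called 0 of 15784 regions (0%), and 783 had an unadjusted p under 0.05. Without late-G1 control replicate 2 it called 44 regions.

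**Figure D2:**
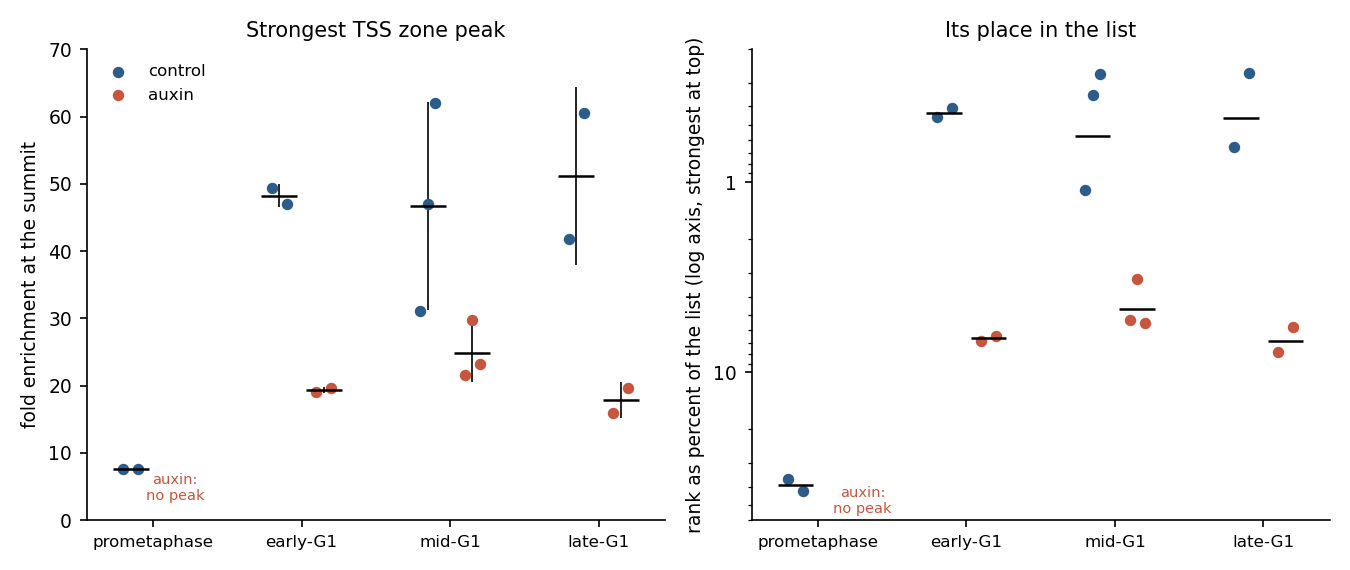
Fold enrichment of the strongest TSS zone peak of Pabpc4 and its rank as a percent of the list, by stage. Points are libraries, black bars group means and, in the left panel, thin lines 1 SD; the right axis is logarithmic with the strongest place at the top. Every post-mitotic control library, at 31.1 or more, lies above every auxin-treated library, at 29.8 or less.

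The auxin contrast by which the gene was chosen looked as follows at the TSS. Fold enrichment at the summit was 49.4 and 47.0 in early-G1, 31.1, 47.0 and 62.0 in mid-G1, and 41.8 and 60.5 in late-G1 control libraries. With auxin it was 19.04 and 19.7, then 21.5, 29.8 and 23.2, then 15.9 and 19.7. The groups do not overlap, and the lowest control value, 31.1 in the shallow mid-G1 replicate 1, is next to the highest auxin-treated value, 29.8 in mid-G1 replicate 2. The means were 48.4 ± 10.6 and 21.3 ± 4.39 (SD, n = 7 each), a ratio of 2.28.

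Within the lists, the Pabpc4 TSS peak stood nearer the top in control libraries. Its rank number among all peaks was 275 to 560 in control libraries, or the top 0.265% to 1.11% of a list, and 3460 to 7029 in auxin-treated libraries, or 3.21% to 7.87%. Over all regions tested, 32 of 15784 (0.203%) had every auxin-treated rank number above every control one, and 53 (0.336%) were called lower by limma. These shares are given as background, because the gene was chosen from that list. By stage the change in −log2 rank of the TSS region was −3.84 ± 0.38 in early-G1, −3.57 ± 0.31 in mid-G1 and −3.72 ± 0.38 in late-G1 (SE).

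The TSS peak differed in height more than in width. Peaks covered 590 ± 166 bp of the TSS zone in control and 585 ± 142 bp in auxin-treated libraries (SD, n = 7 each), and the ranges, 364 to 839 bp and 383 to 784 bp, overlap almost entirely. The pileup at the summit was 53 to 224 fragments in control and 45 to 73 in auxin-treated libraries. Divided by the genome-wide background of each list, it was 70.2 to 105 and 31.9 to 49.3, without overlap and with means of 83.4 ± 15.6 and 37.7 ± 5.43 (SD, n = 7 each). The strongest summit lay 98 to 115 bp before the TSS in control and 88 to 120 bp before it in auxin-treated post-mitotic libraries. Whether fewer cells carried PolII there or each cell carried less cannot be told apart in bulk cells.

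**Figure D3:**
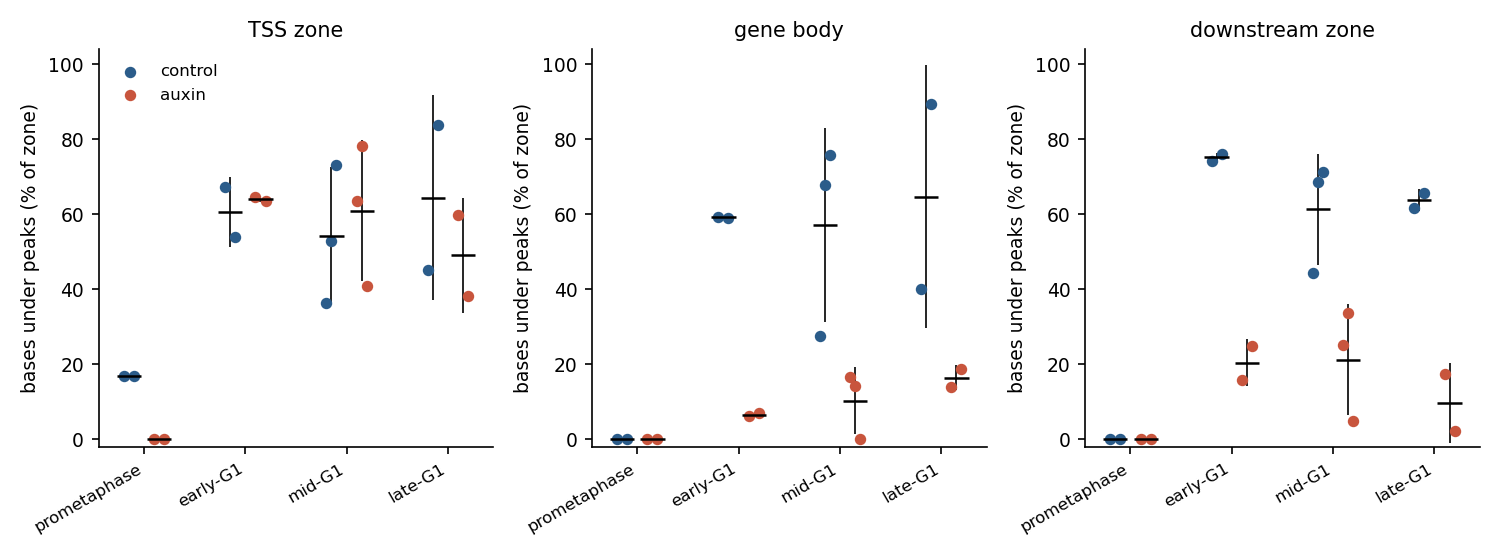
Share of the TSS zone, gene body and downstream zone of Pabpc4 that lies under peaks, in percent, by stage. Points are libraries, black bars group means and thin lines 1 SD. Control and auxin-treated libraries overlap in the TSS zone, at 36.4% to 83.8% and 38.3% to 78.3%, and lie apart after mitosis in the gene body and the downstream zone.

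Along the gene body, which PolII crosses during elongation, the cover itself differed. Peaks covered 9143 and 9118 bp in early-G1, 4261, 10471 and 11674 bp in mid-G1, and 6163 and 13796 bp in late-G1 control libraries. With auxin they covered 944 and 1066, then 2549, 2211 and 0, then 2163 and 2897 bp. Every control library lies above every auxin-treated one, and mid-G1 auxin-treated replicate 3 had no peak with its summit in the gene body. The means were 59.9% ± 20.9 and 11.0% ± 6.75 of the zone (SD, n = 7 each), a ratio of 5.46.

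In the auxin-treated libraries the gene body values were 944 and 1066 bp in early-G1 and 2163 and 2897 bp in late-G1. The downstream values of the same libraries were 1596 and 2494 bp in early-G1 and 1737 and 228 bp in late-G1. Stages were not tested within single zones.

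The downstream zone, where PolII runs on before termination, had less cover with auxin too. In control libraries peaks covered 7433 and 7597, then 4438, 6867 and 7117, then 6172 and 6580 of its 10 kb. In auxin-treated libraries they covered 1596 and 2494, then 2527, 3358 and 488, then 1737 and 228 bp. The groups do not overlap, with means of 66.0% ± 10.7 and 17.8% ± 11.3 (SD, n = 7 each). Fold enrichment of the strongest downstream peak was 13.4 ± 3.40 in control and 6.13 ± 0.870 in auxin-treated libraries (SD, n = 7 each), a ratio of 2.19, beside 2.28 at the TSS.

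Control peaks were more numerous in the gene body and longer over the locus. The gene body held 7 to 15 peaks in control and 0 to 9 in auxin-treated libraries, and the downstream zone 3 to 10 and 1 to 9, with overlap in both zones. The widest peak of the locus measured 4147 to 6745 bp in 6 of the 7 control libraries and 1220 bp in mid-G1 replicate 1, against 410 to 1466 bp with auxin. Single peaks of 6745, 5893 and 5387 bp stood across the annotated end or just after it in mid-G1 replicate 2, early-G1 replicate 2 and late-G1 replicate 2 of the control.

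**Figure D4:**
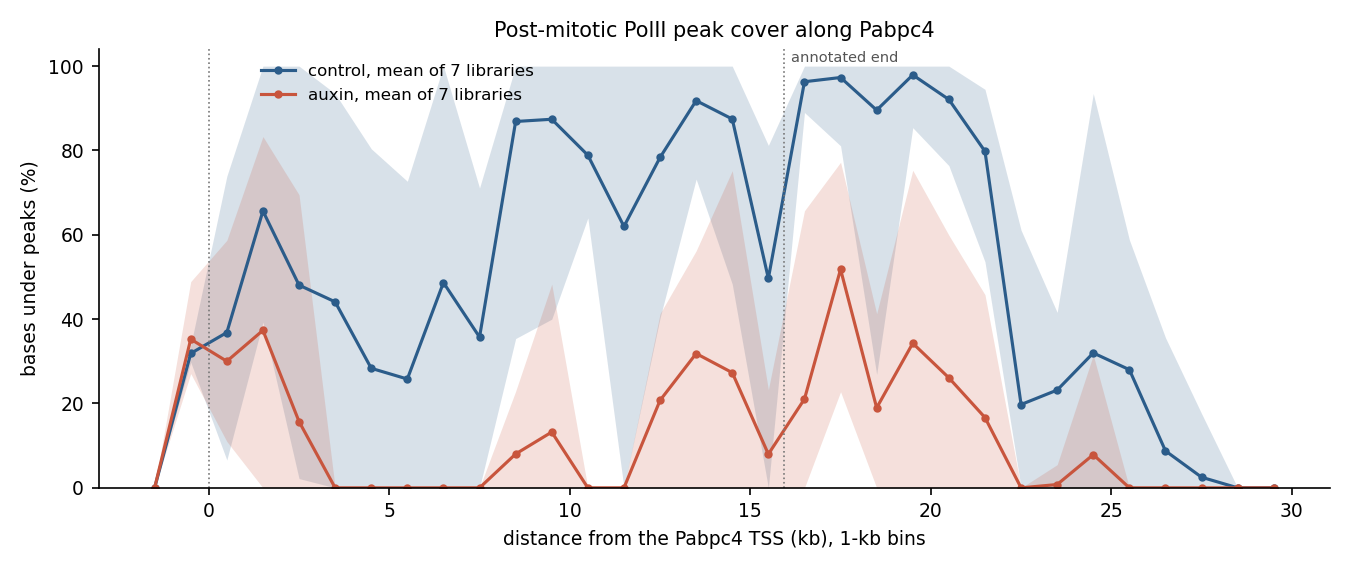
Percent of bases under PolII peaks in 1-kb bins along Pabpc4, after mitosis. Lines are means of 7 control and 7 auxin-treated libraries and the shaded bands run from the lowest to the highest library. Control cover is highest, at up to 97.9%, in the bins that follow the annotated end, and between 3 and 8 kb after the TSS no auxin-treated library has a covered base.

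Cover was uneven along the gene in both conditions. In control libraries the mean cover of 1-kb bins was 25.8% to 48.7% between 3 and 8 kb after the TSS and 86.9% and 87.4% in the next pair of bins. It was 79.8% to 97.9% in the bins from 16 to 22 kb, which start at the annotated end. In the 5 kb from 3 to 8 kb, a stretch picked after its values were seen, peaks covered 183 to 4177 bp in the 7 control libraries and 0 bp in each of the 7 auxin-treated libraries. Between 12 and 15 kb, another stretch picked in that way, the auxin-treated libraries had 0 to 1353 bp under peaks, with a peak in 6 of 7, and the control libraries 1619 to 2972 bp.

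Peaks just beyond the downstream zone are counted with the neighbours below, but were included in finding the last peak. They lay in early-G1 control libraries alone. The last peak ended 7221 to 11383 bp after the annotated end in control libraries and 1328 to 8670 bp after it in auxin-treated libraries. These ranges overlap. The strongest downstream summit lay 1144 to 4834 bp and 1148 to 4913 bp after the end, and these overlap too. Set against the TSS peak of its own library, the strongest downstream peak had 23.3% to 33.3% of the TSS fold enrichment in control and 22.0% to 41.7% in auxin-treated libraries. These percentages overlap, whereas the TSS zone made up 2.96% to 4.02% of the covered bases of the locus in control and 10.9% to 45.7% in auxin-treated libraries.

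The peak caller lists a stretch only where it passes a threshold, so cover also depends on height. Gene body peaks had a best fold enrichment of 8.21 to 14.6 in control and 6.22 to 7.50 in the 6 auxin-treated libraries with one. The lowest fold enrichment of any peak in these lists was 2.03 to 2.66, a value over whole lists that also depends on local background. The pileup of the best gene body peak was 18 to 44 fragments in control and 14 to 17 in auxin-treated libraries. In late-G1 auxin-treated replicate 2 the strongest downstream peak had a fold enrichment of 5.00 at 11 fragments. How far the gene body peaks stood above the threshold at this locus was not tested. Mid-G1 control replicate 1, at 4.54 reads per kb and 50594 peaks, covered 9063 bp of the locus, more than any auxin-treated library. The auxin-treated libraries had depths of 7.53 to 9.27 reads per kb and lists of 74154 to 107666 peaks. This comparison rests on 1 control library. The part of depth and of the listing threshold in the difference in cover was not tested.

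Over coding genes such a separation was rare. Of the 7858 coding genes, every auxin-treated library lay below every control library in covered bases for 4 gene bodies (0.0509%) and 8 downstream zones (0.102%). Both counts include Pabpc4. The median gene had 11.3% of its body and 20.7% of its downstream zone covered in control cells and changed by −0.489 and −1.07 percentage points. Pabpc4 changed by −48.9 and −48.3 percentage points, and none of the 7858 genes fell by more in either zone. It also started high, with 962 genes above it in gene body cover and 624 in downstream cover in control cells. These counts describe the contrast that chose the gene and are no independent evidence.

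The merged region over the 3′ end, from 15036 to 21992 bp after the TSS, was the only other region of the window with a peak in all 14 libraries. Its mean rank was 8327 ± 1706 in control and 23670 ± 5062 in auxin-treated libraries (SD, n = 7 each), a change in −log2 rank of −1.47 ± 0.17 (SE). Every auxin-treated rank number, from 17456, lay above every control rank number, to 10699. From early-G1 to late-G1 this region moved by 0.14 ± 0.22 (SE, limma adjusted p = 0.709), averaged over both conditions.

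A pair of copies of SNORA55, a small nucleolar RNA of the class that guides pseudouridylation, lie in introns of Pabpc4, at 122968587 to 122968717 and 122970395 to 122970525. A peak overlapped the first copy in 6 of 7 control and 2 of 7 auxin-treated post-mitotic libraries, and the second in 7 of 7 and 0 of 7. The copies are 131 bp long and 96.9% identical and share 31 stretches of 36 bases, so some short reads could come from either. They lie inside the stretch of long control peaks, so their own signal cannot be told apart from that of Pabpc4.

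The neighbours of Pabpc4 were mostly without peaks. Heyl, a transcriptional repressor of the Notch pathway that ends at −33036 bp from the Pabpc4 TSS, Bmp8a, a ligand of the TGF-beta family that lies from 29734 bp after it, and Oxct2a, a ketone body enzyme inside Bmp8a, had no overlapping peak in any of the 18 libraries. Neither did the pseudogenes Gm12901 and Gm12900. No peak of any library lay between the start of the window and the Pabpc4 promoter. The nearest one on that side was 60075 bp beyond the border, in mid-G1 auxin-treated replicate 2. On the other side, the last peak in the window ended 448 bp before the border and the next one began 295 bp after it, both in early-G1 control replicate 1 and with fold enrichments of 4.11 and 4.93.

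The remaining 40 peaks were low and scattered. Of these, 16 lay between Bmp8a and the 3′ end of Macf1, a cytoskeletal linker gene on the opposite strand, with 9 peaks in 5 control and 7 in 5 auxin-treated libraries. Another 20 lay inside Macf1, in 3 control and 4 auxin-treated libraries, and 4 in early-G1 control libraries followed the end of the downstream zone. Their fold enrichments ran from 3.48 to 7.35. By library, 9 and 8 of them were in early-G1 control, 6 in early-G1 auxin-treated replicate 2 and 5 in late-G1 control replicate 3, and the others had 0 to 2.

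Outside the 3 Pabpc4 zones, peaks covered 1884 and 2220 bp in early-G1, 0, 192 and 551 bp in mid-G1, and 248 and 1193 bp in late-G1 control libraries. With auxin they covered 400 and 1623, then 171, 288 and 670, then 153 and 482 bp. The groups overlap, and the difference was −438 bp (exact two-sided permutation within stages, p = 0.194, n = 7 and 7), with an SD between libraries of 447 bp. With a downstream zone of 20 kb the difference was −294 bp (same permutation test, p = 0.347). No auxin difference was thus detectable beside Pabpc4, and the exact permutation test could have reached p = 0.00278. No region of the neighbours had a peak in all 14 libraries, so none entered the rank test.

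**Figure D5:**
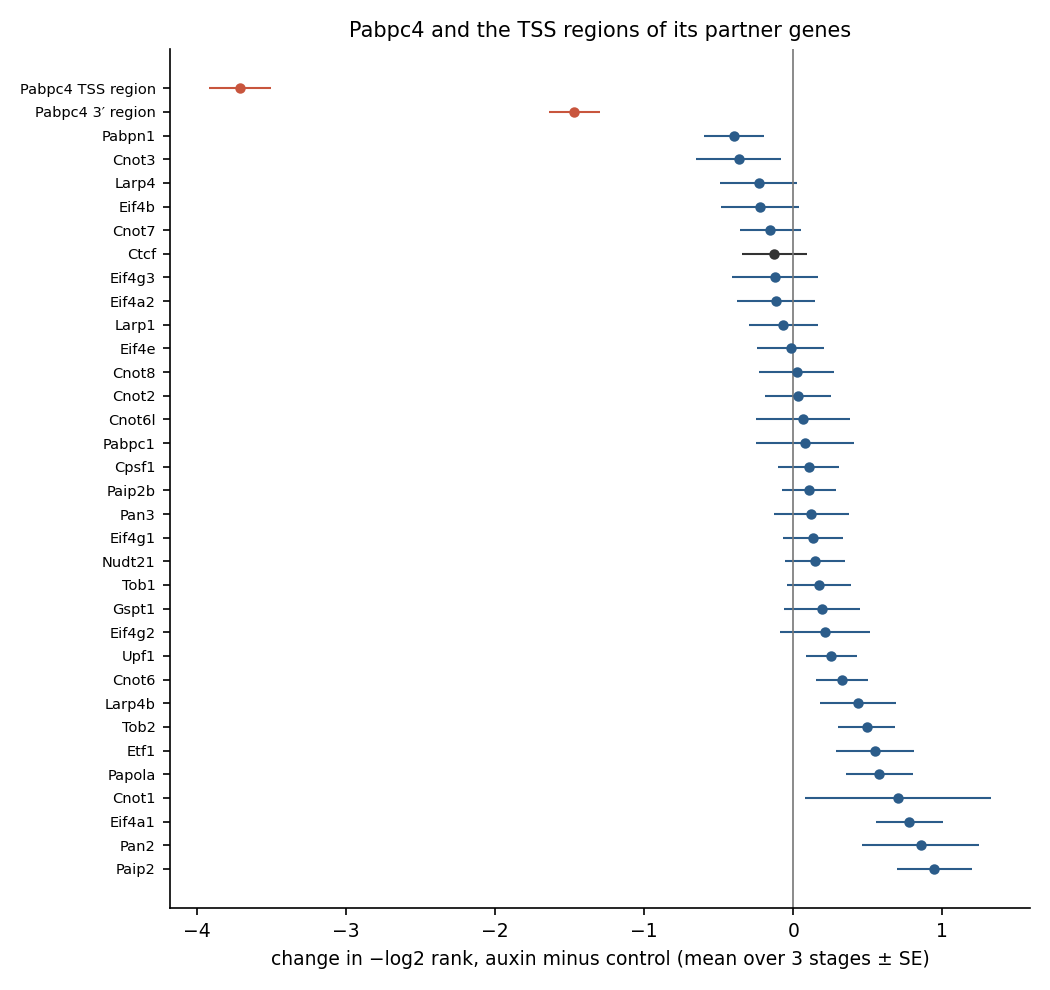
Change in −log2 rank with auxin, averaged over the 3 post-mitotic stages, for the Pabpc4 TSS and 3′ regions (red), the TSS regions of 31 genes of poly(A)-binding proteins and their partners (blue) and Ctcf (black). Points are limma estimates and lines ± 1 SE; negative values are a lower place in the list with auxin. The 31 genes lie between −0.39 and 0.95, and both Pabpc4 regions lie below all of them.

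Genes whose products act on the poly(A) tail or with its binding proteins were not called with auxin. From a list of 38 genes of poly(A)-binding proteins, their regulators, translation factors and deadenylases, 31 had a TSS region in all 14 post-mitotic libraries. Of these, 0 were called lower and 0 higher (limma adjusted p under 0.05), against 115 of all 15784 regions (0.729%), and 5 passed an unadjusted p under 0.05, as did 1725 of all 15784 regions (10.9%). The median change was 0.12, beside −0.010 over all regions tested. Named after their values were seen, these 5 genes all had positive values. They were Paip2, an inhibitor of poly(A)-binding proteins (0.95), Pan2, a deadenylase subunit (0.85), and Eif4a1, an RNA helicase of translation initiation (0.78). The others were Papola, the poly(A) polymerase (0.58), and Tob2, a recruiter of deadenylases (0.49). Limma adjusted p-values of the 5 genes lay between 0.117 and 0.445. The Eif4a1 region, 13651 bp wide, also holds the TSSs of other coding genes. Papola had 3 TSS regions, and the value is that of 1 of them.

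Pabpc1, the main cytoplasmic poly(A)-binding protein gene, had a mean rank of 83.4 in control and 76.6 in auxin-treated libraries. Its change was 0.077 ± 0.33 (SE, limma adjusted p = 0.965). Pabpn1, which encodes the nuclear poly(A)-binding protein, went from 2550 to 3409, a change of −0.39 ± 0.20 (SE, limma adjusted p = 0.498). Paip1 had a TSS peak in 13 of the 14 libraries and the other 6 genes of the list, Pabpc1l, Pabpc2, Pabpc4l, Pabpc5, Pabpc6 and Pabpn1l, in none. Ctcf, whose protein but not gene is the target of auxin, changed by −0.13 ± 0.22 (SE, limma adjusted p = 0.888).

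Over the 14 post-mitotic libraries, the coding TSS regions whose −log2 rank followed that of Pabpc4 most closely, among 7707 compared, were those of Bola3 (Pearson r = 0.907), Hsd3b7 (r = 0.892), Def8 (r = 0.884), E130311K13Rik (r = 0.867) and Traf6 (r = 0.840). These values are a description over libraries that share the auxin split, and each region had a negative auxin estimate, from −1.04 at Hsd3b7 to −2.45 at Bola3. Bola3 went from a mean rank of 1380 ± 774 to 6304 ± 1017 and Traf6 from 4300 ± 1265 to 9173 ± 2673 (SD, n = 7 each). Def8 went from a mean rank of 5024 ± 1232 to 25001 ± 9566 (SD, n = 7 each), beside 393 and 5047 at the Pabpc4 TSS. Its mean fold enrichment went from 19.7 ± 3.64 to 6.31 ± 1.61 (SD, n = 7 each), beside 48.4 and 21.3 at Pabpc4. Def8 thus fell over more places and kept a smaller share of its fold enrichment, although its −log2 change, −2.28, was the smaller one. The 5 regions lie on chromosomes 6, 7, 8, 3 and 2, and none is on chromosome 4.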

How the data were processed

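The authors aligned PolII ChIP-seq reads to mm9 with Bowtie2 2.2.9 in local mode, removed alignments with a mapping quality under 10 and duplicates with SAMtools 0.1.19, filtered blacklisted regions with bedtools 2.27.1, and called peaks with MACS2 2.1.0 at a q-value of 0.01. In the deposited lists the fold enrichment is a ratio at the summit, and the −log10 p-value and −log10 q-value and the score are the caller's, and the score was not used. The authors' lists hold no read counts per gene, so no count model was applied. Pileup and its background were recovered from fold enrichment and p-value. The background divided by the width of the narrowest peak of the list gave the relative depth. That width was taken in place of the fragment length.

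Peaks of 18 libraries were merged at 1 bp of overlap into 169903 regions. The −log2 rank of 15784 regions in all 14 post-mitotic libraries was fitted with limma 3.58.1 in R 4.3.3 over 6 group means, tested on simulated data, and adjusted after Benjamini-Hochberg. Covered bases were clipped at zone borders and compared by exact permutation in Python 3.11.15 with numpy 2.4.6. The members, zones and gene lists were chosen with earlier results of these data known. Named genes are Pabpc4, genes overlapping the window, Ctcf, the 5 most alike TSS regions, called members of the poly(A) list, Pabpc1 and Pabpn1. No member was called, and the 5 with an unadjusted p under 0.05, those not tested, and the neighbouring pseudogenes are named outside that rule, after their values were seen. Annotation was GENCODE vM1 on NCBIM37, the assembly of mm9. The 4 input samples had no peak list.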

Additional observations from a re-analysis of the deposited data

Results flagged for a closer look

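Among 24 sets of 7 post-mitotic libraries of 1 condition that were checked for a value far from the rest, 1 stood out. The critical value stands for about 1 in 20 by chance, for independent sets of normally distributed values. The sets here share libraries and peaks, so that rate is only a rough guide. In early-G1 auxin-treated replicate 2, peaks outside the Pabpc4 zones covered 1623 bp, and the next highest auxin-treated library, mid-G1 replicate 3, covered 670 bp. The gap is 0.648 of the range, above the critical value of 0.568. Without that library the auxin difference outside the Pabpc4 zones was −642 bp.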

How the results depend on the processing

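Of 54 values recomputed with another setting and all libraries, 44 counted as unchanged. Values with a p-value had to keep direction and side of the threshold. The untested auxin values had to keep direction and stay within the pooled SD between libraries, and counts of called regions within a 1.5-fold margin. The rest were as follows. With a normal score of the rank the auxin change at the TSS was −1.18 and with log2 fold enrichment it was −1.26, on other scales than the −3.71 reported. The normal score gave −0.034 for late-G1 against early-G1 and −0.050 for its difference with auxin, and 69 and 3 called regions where 2329 and 115 were reported, and joining peaks within 1 kb gave 1456 for the former. For cover across stages, a downstream zone of 20 kb gave −186 bp and peaks with a −log10 q of at least 5 gave −12.3 bp. With a downstream zone of 5 kb the neighbouring difference was −2078 bp (exact permutation p = 0.00278), because the far part of the Pabpc4 signal is then counted with the neighbours. The cause of the other changes was not tested. Depth limits which low stretches are listed as peaks, and was not varied.

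Leaving out 1 library at a time gave −3.84 to −3.58 for the auxin change at the TSS, 0.040 to 0.43 for late-G1 against early-G1 and −0.27 to 0.51 for its difference with auxin, negative without late-G1 control replicate 2 or late-G1 auxin-treated replicate 2. Called regions ran from 1348 to 2775 between stages, under the 1.5-fold margin without any early-G1 or late-G1 auxin-treated library or any early-G1 control library. With auxin they ran from 55 to 212, and 212 were called without late-G1 control replicate 2. They were 55 to 76 without an early-G1 library, a late-G1 auxin-treated library or mid-G1 auxin-treated replicate 2. Covered bases differed by 9308 to 10871 bp between post-mitotic and prometaphase libraries, by −2077 to 2138 bp across stages (negative without early-G1 auxin-treated replicate 1, late-G1 auxin-treated replicate 1 or late-G1 control replicate 3), by −13979 to −11169 bp with auxin (−12574 bp with all libraries, stages weighted equally), and by −642 to −234 bp outside the Pabpc4 zones. Where 1 library of a group was left, it was taken to vary like the other groups.

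With the replicate block, in which labels are exchanged only among equal replicate numbers, the p across stages was 0.992 and that of the neighbours 0.25 in the exact permutation test, with 30.5 and −438 bp. The block in limma gave −3.59 at the TSS with auxin, 0.052 for late-G1 against early-G1 and 0.48 for its difference with auxin, neither of them called, and 2725 and 159 called regions between stages and with auxin. The poly(A) list was not counted under the block. Deviations of libraries with the same number correlated at 0.011 to 0.29, with 0.1 exceeded in mid-G1 alone, so the numbers were not taken as pairs.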
